A study of Mus musculus with 6 samples.

Results

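Kinesins are motor proteins that walk along microtubules or take them apart, and 39 of the 16982 genes in the count table carry a kinesin symbol (Kif with a number, or Kifc with a number). They were split by a fixed list of 12 mitotic kinesins, with the remaining 27 taken as transport or other kinesins whatever their further roles. All 39 are accounted for below. RNA was sequenced from wild-type (WT, Rnf20+/+) and Rnf20-/- reprogrammable cells of C57BL/6 background on day 3 of reprogramming, with 3 libraries for each genotype. The cells were mouse embryonic fibroblasts (MEF), and retroviruses delivered OCT4, SOX2, KLF4 and C-MYC to both genotypes. The deletion was made in MEF that carried floxed Rnf20 alleles with a ubiquitously expressed, tamoxifen-inducible Cre. The text of the paper does not state whether the WT cells carried these alleles. The study induced the deletion with 4-OH tamoxifen, the labels list all 6 samples as untreated, and whether the WT cells received the drug is not given in the sources used here. Infected cells were replated on mitomycin-C-treated MEF feeder layers, whose RNA cannot be told apart from that of the reprogrammable cells in these counts. RNF20 is an E3 ligase for the ubiquitin mark on histone H2B.

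A kinesin couples ATP hydrolysis in its motor domain to movement along a microtubule, and most families walk towards the plus end. Transport kinesins carry vesicles, mitochondria, endosomes or the trains that build the cilium, usually through light chains or adaptor proteins that bind the cargo. Mitotic kinesins build the spindle, move and align chromosomes and complete cytokinesis, and their transcripts are known to accumulate in G2 and M phase of dividing cells and to be low in cells that have left the cycle.

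Each library held between 20545442 and 21746898 counts. Rnf20 itself was at 107, 107 and 106 CPM (read counts scaled by library size and by the TMM factors of edgeR) in WT replicates 1 to 3 and at 18.7, 18.5 and 16.4 CPM in knockout replicates 1 to 3, so the libraries followed their labels. Knockout replicate 3 stood apart from the other knockout libraries, with a chi-square statistic of 92.4 and 101 per gene against them, where knockout replicates 1 and 2 gave 8.57 and the WT pairs 6.04 to 8.92. Counts on 4 Y-linked genes were 4774 to 5092 in the WT libraries, 5608 in knockout replicate 2, and 0 and 1 in knockout replicates 1 and 3, so Y-linked RNA was near absent in knockout replicates 1 and 3 alone. The labels do not say that the 3 libraries of a genotype came from separate cultures, so p-values measure the spread between these libraries only.

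The mitotic kinesins fell together in Rnf20 knockout cells, while the transport kinesins as a group did not. All 12 mitotic kinesins had negative log2 fold changes (knockout over WT), from -2.13 for Kif2c to -0.99 for Kifc1 with a median of -1.84, against a median of -0.00032 over all 13386 genes tested. In all 12 genes every knockout library lay below every WT library, a separation that 28.2% of all genes tested showed in this direction. Fell and rose are used here of genes with a Benjamini-Hochberg adjusted p under 0.05 in the quasi-likelihood test of edgeR, which 16.6% of genes passed with lower levels and 16.4% with higher levels (20.1% and 13.1% with library size as the only scaling). The 12 mitotic kinesins passed this threshold with adjusted p from 0.0111 to 0.0355. In bulk RNA, fewer dividing cells and less kinesin RNA per dividing cell cannot be told apart.

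Under the stricter call of the study's methods (adjusted p under 0.01, a log2 fold change over 1 in size and a mean FPKM over 1 in either genotype), 0 mitotic kinesins were called lower by edgeR's quasi-likelihood test, where 2.08% of genes tested were, and 0 passed the adjusted p of 0.01 alone, where 4.89% did. All 12 had an unadjusted p under 0.05, which 23% of genes had with lower levels. By DESeq2, 12 passed an adjusted p of 0.01 and 11 were called (background 13.1% and 4.22%), and by edgeR's exact test the numbers were also 12 and 11 (background 11.1% and 4.23%). The gene left uncalled by both was Kifc1, whose fold change was the smallest.

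The same genes were lower in each knockout library, but to different depths. Knockout replicate 1 held 33.2% to 62.5% of the WT mean of a mitotic kinesin, knockout replicate 2 held 26.01% to 52.8%, and knockout replicate 3 held 7.25% to 35.3%. The medians over the 12 genes were 40.8%, 33.2% and 11.9%. Knockout replicate 1 was the highest and knockout replicate 3 the lowest of the knockout libraries for all 12 genes.

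Without knockout replicate 3 the median log2 fold change was -1.43, all 12 mitotic kinesins passed an adjusted p of 0.01 (1.44e-06 to 0.000161 by edgeR's quasi-likelihood test, background 16.7%) and 11 were called (background 3.62%). With other libraries left out, fewer passed an adjusted p of 0.05: 3 without WT replicate 1, 3 without WT replicate 2, 0 without WT replicate 3 and 8 without knockout replicate 2, where 7.31%, 6.13%, 5.17% and 11.6% of all genes passed with lower levels, and 12 without knockout replicate 1, where 13.4% did. With Y-linked counts (present or absent) as a covariate the log2 fold changes were -1.94 to -0.92. Of the knockout libraries only replicate 2 shares Y-linked counts with WT, so this fit sets knockout replicate 2 alone against WT. Its effect sizes are therefore given without a test.

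**Figure D1:**
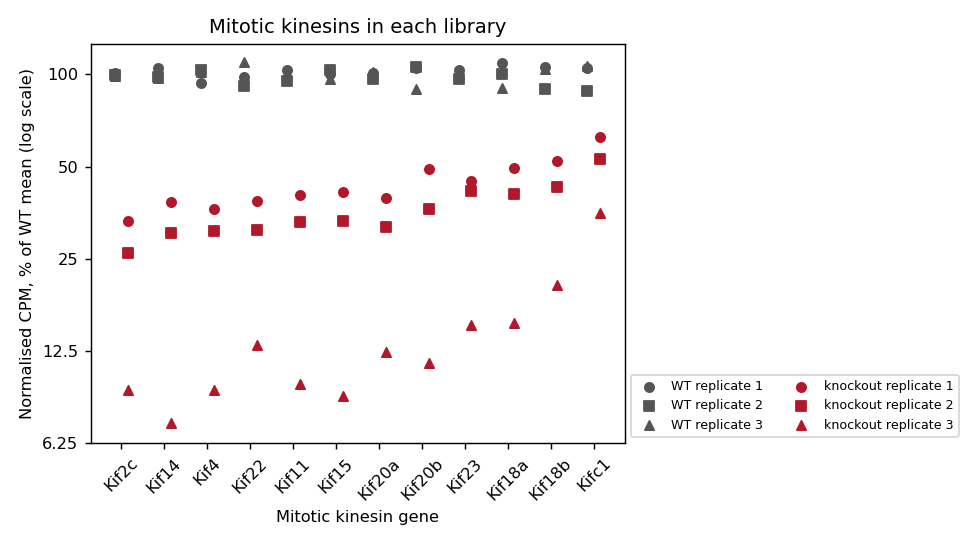
Normalised CPM of the 12 mitotic kinesins as a percentage of the WT mean (vertical axis, log scale), with 1 point for each of 3 WT and 3 knockout libraries and genes ordered by fold change. Every knockout point lies below every WT point of its gene, and knockout replicate 3 is the lowest in all 12 genes, at 7.25% to 35.3% of the WT mean.

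The promoters of most mitotic kinesins held a short sequence word, TTTGAA, near the start site. Genes that peak in G2 and M phase are known to carry a cell cycle genes homology region (CHR, most often TTTGAA) near the start site, often with a CCAAT box upstream, which NF-Y binds. RefSeq windows of GRCm38.p6 from 250 bases before to 50 after the start were found for 11 mitotic and 20 transport or other genes (24 windows), and both strands were searched. TTTGAA was in the window of 10 of 11 mitotic genes (all but Kif18a) and of 3 of 20 transport genes, and 17.9% of all 32851 windows held it. CCAAT was in 7 of 11 and 8 of 20 genes (37.4% of windows), TTGGCGC or TTCCCGC, 2 words of E2F sites, in 2 of 11 and 2 of 20 (6.81%), and the rarer CHR form TTCGAA in 0 of 11 and in 1 of 20, Kif24 (1.56%). No match in a mitotic window overlapped another.

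In the 100 bases around the start (70 before to 30 after, a stretch chosen after the matches were seen), TTTGAA was in 8 of 11 mitotic and 2 of 20 transport genes (5.11% of windows), and TTTGAA together with CCAAT in 6 of 11 and 0 of 20 (0.901%). That 0 depends on the edge of the stretch. The transport gene Kif26b, which did not pass the test, has TTTGAA 9 bases and CCAAT 73 bases before its start. The 8 mitotic stretches with TTTGAA are printed 5′ to 3′ on the gene's strand, because they hold the words that the group shares, and Kif18a (no TTTGAA) and the transport genes Kif3b, which rose, and Kif26a, which fell, are printed for contrast. Capitals mark TTTGAA and CCAAT, or TTCAAA and ATTGG where the word is on the other strand.
Kif11 (chr19:37376312-37376411, plus strand): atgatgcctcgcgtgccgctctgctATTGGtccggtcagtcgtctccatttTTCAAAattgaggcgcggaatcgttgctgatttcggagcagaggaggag
Kif15 (chr9:122951011-122951110, plus strand): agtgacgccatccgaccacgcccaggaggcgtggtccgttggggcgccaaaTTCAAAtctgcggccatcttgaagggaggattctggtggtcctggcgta
Kif18b (chr11:102925095-102925194, minus strand): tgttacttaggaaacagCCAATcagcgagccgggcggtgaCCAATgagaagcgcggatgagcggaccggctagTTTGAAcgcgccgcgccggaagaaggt
Kif20b (chr19:34922288-34922387, plus strand): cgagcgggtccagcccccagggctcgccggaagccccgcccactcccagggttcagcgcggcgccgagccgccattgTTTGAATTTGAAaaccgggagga
Kif22 (chr7:127042391-127042490, minus strand): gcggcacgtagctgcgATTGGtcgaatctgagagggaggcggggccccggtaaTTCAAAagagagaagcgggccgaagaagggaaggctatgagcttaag
Kif23 (chr9:61946770-61946869, minus strand): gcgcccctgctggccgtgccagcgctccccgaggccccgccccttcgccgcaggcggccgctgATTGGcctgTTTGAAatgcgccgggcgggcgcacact
Kif4 (chrX:100625995-100626094, plus strand): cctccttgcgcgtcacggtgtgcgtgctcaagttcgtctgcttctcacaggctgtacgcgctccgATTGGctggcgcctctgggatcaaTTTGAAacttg
Kifc1 (chr17:33890604-33890703, minus strand): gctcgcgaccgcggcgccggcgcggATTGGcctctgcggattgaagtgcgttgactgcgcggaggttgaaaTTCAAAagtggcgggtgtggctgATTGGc
Kif18a (chr2:109280668-109280767, plus strand): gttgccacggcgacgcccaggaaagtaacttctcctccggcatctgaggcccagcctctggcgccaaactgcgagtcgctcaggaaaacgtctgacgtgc
Kif3b (chr2:153291346-153291445, plus strand): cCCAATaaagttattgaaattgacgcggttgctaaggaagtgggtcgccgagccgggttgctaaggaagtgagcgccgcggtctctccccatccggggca
Kif26a (chr12:112146138-112146237, plus strand): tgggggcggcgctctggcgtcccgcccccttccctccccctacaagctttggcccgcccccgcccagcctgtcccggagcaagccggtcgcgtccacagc

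In these stretches a CCAAT box stands before the TTTGAA word in Kif11, Kif18b, Kif22, Kif23, Kif4 and Kifc1 (with another CCAAT after it in Kifc1), and Kif20b carries 2 copies of TTTGAA side by side. Kif15 has TTTGAA without CCAAT, next to a TTGGCGC word on the other strand. Kif14 and Kif2c hold TTTGAA further from the RefSeq start, at 228 and 103 bases before it. These RefSeq starts lie 1505 and 3867 bases inside the genes as GENCODE draws them, and that of Kif4 lies 328 bases inside. For the transport genes Kif1a and Kif27, the windows with TTTGAA belong to starts 19471 and 4175 bases inside. Another Kif1a window, with its start 77 bases inside, holds no TTTGAA. Among genes with a RefSeq start within 250 bases of the GENCODE 5′ end (a limit set after the matches were seen), 7 of 8 mitotic and 1 of 18 transport genes held TTTGAA in the window. A match of letters does not show that a factor bound there, and no binding was measured in the files used here.

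Among the motors that set up the bipolar spindle, Kif11, the kinesin-5 that slides antiparallel microtubules apart, was at 94.9, 87.7 and 92.6 CPM in the WT libraries and at 37.0, 30.3 and 8.91 CPM in knockout replicates 1 to 3. Kif11 (ENSMUSG00000012443, chr19:37376403-37421859, plus strand) fell by 1.85 on the log2 scale (standard error, SE, 0.456, adjusted p = 0.0243 by edgeR's quasi-likelihood test). The 2 groups did not overlap, and the lowest knockout library was knockout replicate 3. Kif15, a kinesin-12 that helps to keep the poles apart, was at 40.8, 42.1 and 39.4 CPM in WT and at 16.8, 13.6 and 3.62 CPM in knockout libraries, with a log2 fold change of -1.85 (SE 0.475), the same to 2 decimals as that of Kif11. The opposing motor is Kifc1, a kinesin-14 that walks to the minus end and focuses the poles. It was at 60.8, 50.8 and 61.5 CPM in WT and at 36.1, 30.5 and 20.3 CPM in knockout libraries, a log2 fold change of -0.99 (SE 0.206, adjusted p = 0.0148 by the same test). The fall of Kifc1 was the smallest of the 12, and its SE was the smallest.

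Kifc1 (ENSMUSG00000079553, chr17:33875659-33890661, minus strand) is the one mitotic kinesin with a close copy. Of its 31-base words, 53.2% also occur in Kifc5b, so reads could be split between these genes. Kifc5b itself was at 35.7, 35.7 and 35.3 CPM in WT and at 30.4, 27.5 and 28.9 CPM in knockout libraries, a log2 fold change of -0.30 (SE 0.0751, adjusted p = 0.0261 by edgeR's quasi-likelihood test). The fold change of Kifc1 is therefore uncertain. In the other mitotic kinesins at most 6.35% of such words were shared with another gene.

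Among the motors that act at microtubule plus ends and kinetochores, Kif2c, the kinesin-13 that depolymerises microtubules and frees faulty attachments, showed the largest fall of the 12. It was at 46.7, 45.9 and 45.5 CPM in WT and at 15.3, 11.97 and 4.29 CPM in knockout libraries. Kif2c (ENSMUSG00000028678, chr4:117159639-117182639, minus strand) fell by 2.13 on the log2 scale (SE 0.401, adjusted p = 0.0111 by edgeR's quasi-likelihood test), and without knockout replicate 3 by 1.75. Kif18a and Kif18b are kinesin-8 motors that shorten microtubules from the plus end, the first at kinetochores and the second on astral microtubules. Kif18a was the least abundant of the 12 in CPM, at 14.8, 13.7 and 12.3 in WT and at 6.73, 5.56 and 2.096 in knockout libraries, with a log2 fold change of -1.50 (SE 0.380). Kif18b was at 32.0, 27.01 and 31.5 CPM in WT and at 15.8, 12.9 and 6.19 CPM in knockout libraries, with a log2 fold change of -1.38 (SE 0.311). These kinesin-8 genes, on chr2 and chr11, had the smallest falls after Kifc1, and exons of Kif18a overlap Mettl15 on the opposite strand.

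The chromokinesins Kif4 and Kif22 bind chromosome arms. Kif4, which also sets the length of the central spindle, was at 41.8, 46.1 and 45.4 CPM in WT and at 16.2, 13.7 and 4.14 CPM in knockout libraries, and fell by 1.97 on the log2 scale (SE 0.433, adjusted p = 0.0173 by edgeR's quasi-likelihood test). Kif22, which pushes arms away from the poles, was at 47.7, 44.5 and 53.2 CPM in WT and at 18.7, 15.1 and 6.33 CPM in knockout libraries, and fell by 1.86 (SE 0.355, adjusted p = 0.0115). Both fell by about the median of the 12 genes or slightly more. Kif4 lies on the X chromosome (chrX:100625737-100727214, plus strand) and Kif22 on chr7:127027729-127042471 (minus strand), and exons of both overlap a gene on the opposite strand, Pdzd11 and Gm31749. The libraries kept the strand, but whether the counting used it is not given in the sources used here.

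The remaining mitotic kinesins act in the central spindle and cytokinesis. Kif20a, a kinesin-6 that brings the Aurora B complex to the central spindle, was at 91.7, 87.6 and 92.5 CPM in WT and at 35.9, 28.8 and 11.2 CPM in knockout libraries. It fell by 1.84 on the log2 scale (SE 0.376, adjusted p = 0.0142 by edgeR's quasi-likelihood test). Its exons overlap Cdc23 on the opposite strand. Kif23, the kinesin of the centralspindlin complex, was at 55.1, 51.5 and 53.4 CPM in WT and at 23.9, 22.3 and 8.10 CPM in knockout libraries, with a log2 fold change of -1.56 (SE 0.364). Kif20b, the third kinesin-6, was at 49.5, 49.9 and 42.2 CPM in WT and at 23.2, 17.2 and 5.38 CPM in knockout libraries, with a log2 fold change of -1.63 (SE 0.456) and the highest adjusted p of the 12 (0.0355 by the same test). The fold changes of these 3 kinesin-6 genes lay closer to each other than any of their SEs. Kif14, which recruits citron kinase to the midbody, was at 29.6, 27.7 and 27.5 CPM in WT and at 10.8, 8.55 and 2.05 CPM in knockout libraries, with a log2 fold change of -1.99 (SE 0.499). Its level in knockout replicate 3, 7.25% of the WT mean, was the lowest of any mitotic kinesin in any library relative to WT.

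Per length of transcript, the mitotic kinesins made up a smaller share of all kinesin RNA in knockout cells. The summed level of the 12 mitotic kinesins was 165 ± 5.99 CPM per kilobase in WT (SD, n = 3), against 72.7, 59.9 and 25.6 in the knockout libraries. The 27 transport or other kinesins summed to 221 ± 1.53 CPM per kilobase in WT and to 267.5, 270.5 and 270.9 in knockout replicates 1 to 3. The higher sum was not shared by all members. Mean levels went from 45.7 to 70.9 for Kif5b, from 45.5 to 59.5 for Kif1c and from 6.55 to 13.5 for Kif1a. Of the 25 tested, 9 had negative log2 fold changes and 14 overlapped between genotypes. Mitotic kinesins made up 42.7% ± 0.754 of the summed kinesin level in WT (SD, n = 3) and 21.4%, 18.1% and 8.64% in the knockout libraries. The mitotic sum differed between knockout libraries by more than the transport sum, although single transport kinesins differed between them as well (Kif1c, Kif1b, Kif24 and Kif26a, given below). The exact permutation test of 3 against 3 libraries cannot go below a two-sided p of 0.1, so these sums are given without a test.

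Kif20a (25.4 CPM per kilobase), Kifc1 (24.6), Kif22 (22.1) and Kif11 (19.0) were the most abundant in WT, and Kif20a and Kifc1 changed places between WT libraries. In all 3 knockout libraries the order was Kifc1, Kif20a, Kif22, with Kif11 in the next place in knockout replicate 1 and Kif23 there in knockout replicates 2 and 3. The share of Kifc1 in the summed mitotic level was 14.9% ± 1.02 in WT (SD, n = 3), against 21.1%, 21.6% and 33.8% in the knockout libraries, with the reservation on Kifc5b given above.

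**Figure D2:**
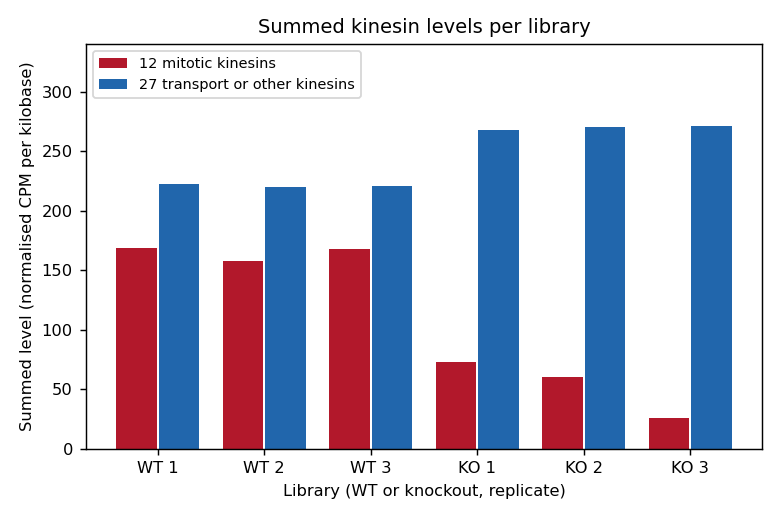
Summed level of the 12 mitotic kinesins (red) and the 27 transport or other kinesins (blue) in each library, in normalised CPM per kilobase of gene length, with 1 pair of bars for each library. The mitotic sum is 157.7 to 168 in WT and 25.6 to 72.7 in knockout libraries, and the transport sum is 219.5 to 222.6 in WT and 267.5 to 270.9 in knockout libraries.

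Of the 27 transport or other kinesins, 25 passed the count filter, and most of these did not pass the test. Their median log2 fold change was 0.13, with 9 negative and 16 positive values, of which Kif2a and Kif3c turn negative with library size as the only scaling. At an adjusted p under 0.05 (quasi-likelihood test of edgeR), 4 rose (Kif1a, Kif5b, Kif3b and Kif9) and 2 fell (Kif26a and Kif16b), which is about the share of all genes tested in the higher direction and below it in the lower one (background 16.4% and 16.6%). At an adjusted p under 0.01, 3 were higher and 0 lower (background 4.98% and 4.89%). Beside that 0, 2 genes were lower at an unadjusted p under 0.05 (background 23%). At an adjusted p of 0.01, 0 were lower by DESeq2 and 1 (Kif26a) by the exact test (background 13.1% and 11.1%). By the call of the study's methods, 1 gene was called higher (Kif1a, background 1.5%) and 0 lower (background 2.08%). By DESeq2 and the exact test 3 each were higher at an adjusted p of 0.01 (background 13.8% and 10.6%) and 1 each was called higher (3.12% and 3.06%). Libraries of the 2 genotypes did not overlap in 6 higher genes (background 26.6%) and 5 lower genes (28.2%), and overlapped in 14.

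These calls also moved with single libraries. Without knockout replicate 3, 6 transport or other kinesins were higher and 3 lower at an adjusted p under 0.01 (background 16.4% and 16.7%), and by the study's call 0 were higher and 1, Kif26a, was lower (background 2.18% and 3.62%). At an adjusted p under 0.05 (quasi-likelihood test of edgeR), 3 were higher and 0 lower without WT replicate 1, 2 or 3. In these fits 7.01%, 5.75% and 5.11% of all genes were higher and 7.31%, 6.13% and 5.17% lower. Without knockout replicate 1 the higher and lower counts were 3 and 2, and without knockout replicate 2 they were 4 and 0. There 14.2% and 12.4% of all genes were higher and 13.4% and 11.6% lower. Kif1a, Kif5b and Kif3b stayed under 0.05 with any 1 library left out, with highest adjusted p of 0.0303, 0.0303 and 0.0356. With the Y-linked covariate, which sets knockout replicate 2 alone against WT, their log2 fold changes were 1.04, 0.71 and 0.58.

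**Figure D3:**
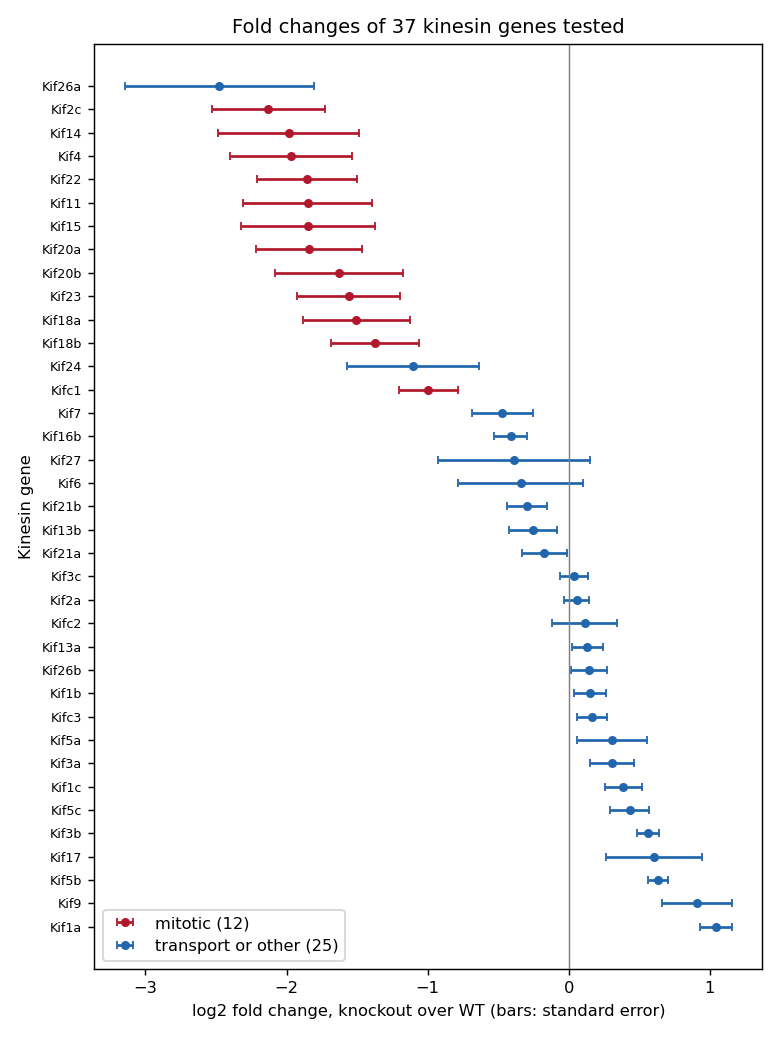
Log2 fold change of knockout over WT (horizontal axis) with its standard error (bars) for the 37 kinesin genes tested, ordered by value, with mitotic kinesins in red and transport or other kinesins in blue. The 12 mitotic genes lie between -2.13 and -0.99, and of the other 25 Kif26a (-2.48) lies below them, Kif24 (-1.10) among them and the remaining 23 between -0.47 and 1.04.

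Kinesin-1 is the main motor of conventional anterograde transport, and its widely expressed heavy chain is Kif5b. Kif5b was at 273.8, 275.2 and 278.3 CPM in WT and at 433.1, 450.2 and 399.8 CPM in knockout libraries. Kif5b (ENSMUSG00000006740, chr18:6201002-6242174, minus strand) rose by 0.63 on the log2 scale (SE 0.0713, adjusted p = 0.00349 by edgeR's quasi-likelihood test). Its mean was the highest of the kinesins per length in both genotypes, at 45.7 and 70.9 CPM per kilobase, although Kif1c was above it in WT replicates 1 and 3 and knockout replicate 3. Its share of the summed kinesin level was 11.9% ± 0.240 in WT and 22.01% ± 0.795 in knockout libraries (SD, n = 3 each). Knockout replicate 3 was the lowest knockout library for Kif5b, and without it the log2 fold change was 0.68. The heavy chains best known from neurons gave a log2 fold change of 0.43 for Kif5c (adjusted p = 0.0531) and of 0.31 for Kif5a (adjusted p = 0.369).

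The kinesin-3 family carries vesicles and endosomes, and its members did not move alike. Kif1a, best known for axonal transport of synaptic vesicle precursors, was at 59.2, 54.6 and 55.5 CPM in WT and at 100.7, 116 and 133 CPM in knockout libraries. Kif1a (ENSMUSG00000014602, chr1:93015464-93101951, minus strand) rose by 1.04 on the log2 scale (SE 0.111, adjusted p = 0.00321 by edgeR's quasi-likelihood test). It had the lowest adjusted p of all kinesins, and all 3 knockout libraries lay above WT. Without knockout replicate 3 the log2 fold change was 0.94 (adjusted p = 6.24e-06 by the same test), which is under the fold of the study's call. Of the neuronal markers beside it, Map2 had a log2 fold change of -0.79 (adjusted p = 0.0451) and Syt1 of -0.60 (adjusted p = 0.180). Snap25 and Rbfox3 were under the count filter, with 1, 2 and 2 counts of Snap25 in WT and 7, 7 and 4 in knockout libraries, and 0 to 3 counts of Rbfox3 in a library.

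Kif16b, a kinesin-3 that moves early endosomes, fell. It was at 41.2, 42.6 and 45.5 CPM in WT and at 35.5, 34.4 and 27.2 CPM in knockout libraries, with a log2 fold change of -0.41 (SE 0.117, adjusted p = 0.0367 by edgeR's quasi-likelihood test), and -0.30 without knockout replicate 3. Kif1c, known from vesicle and podosome transport in fibroblasts and macrophages, was at 327.6, 304.8 and 335.0 CPM in WT and at 380.2, 375.9 and 510.1 CPM in knockout libraries. Its libraries did not overlap, but knockout replicate 3 was far above the others and the log2 fold change of 0.39 had an adjusted p of 0.0608. Without knockout replicate 3 it was 0.23 (adjusted p = 0.00648 by the same test). Kif1c was close to Kif5b in WT, at 45.5 CPM per kilobase.

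The other measured kinesin-3 genes of the transport group did not pass the test. Kif1b, a carrier of mitochondria and vesicles, was at 224.8, 241.5 and 218.2 CPM in WT and at 268.9, 278.5 and 214.0 CPM in knockout libraries, with a log2 fold change of 0.15 (adjusted p = 0.321). Kif13a, an endosome motor, was at 100.3, 101.0 and 98.7 CPM in WT and at 119.7, 117.0 and 91.8 CPM in knockout libraries, with 0.13 (adjusted p = 0.384). In both genes knockout replicates 1 and 2 were above WT and knockout replicate 3 was below it. Kif13b had a log2 fold change of -0.25 (adjusted p = 0.279).

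**Figure D4:**
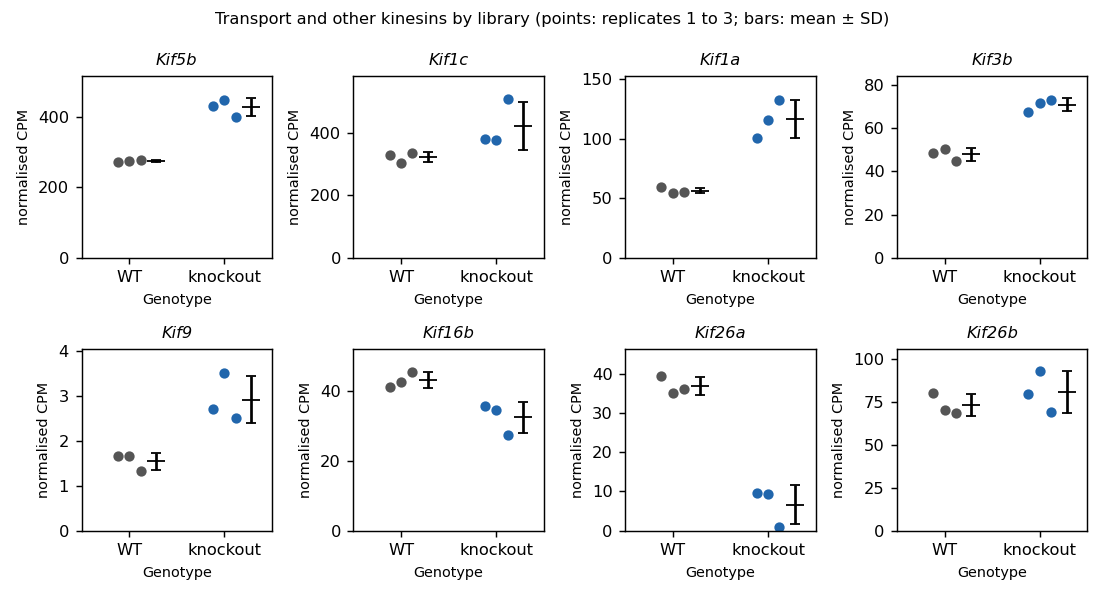
Normalised CPM (vertical axes, from 0) of 8 transport or other kinesins in each of 3 WT (grey) and 3 knockout (blue) libraries, with the mean and SD beside the points. Kif5b, Kif1a, Kif3b and Kif9 are higher and Kif16b and Kif26a lower in all 3 knockout libraries, Kif1c has 1 knockout library at 510.1 CPM, and Kif26b overlaps between genotypes.

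Kinesin-2 motors drive anterograde transport in the cilium as a heterotrimer of Kif3a, Kif3b and the adaptor Kifap3. Kif3b was at 48.6, 50.5 and 44.7 CPM in WT and at 67.6, 71.7 and 73.3 CPM in knockout libraries. Kif3b (ENSMUSG00000027475, chr2:153291413-153333390, plus strand) rose by 0.56 on the log2 scale (SE 0.0778, adjusted p = 0.00523 by edgeR's quasi-likelihood test). Its partners did not pass the test: Kif3a was at 32.8, 39.3 and 33.6 CPM in WT and at 39.0, 37.99 and 53.7 CPM in knockout libraries (log2 fold change 0.31, adjusted p = 0.167), and Kifap3 had a log2 fold change of -0.11 (adjusted p = 0.495). Kif3c, which can pair with Kif3a, had 0.038 (adjusted p = 0.789), and the homodimeric Kif17, at 0.949 to 2.24 CPM in all libraries, had 0.61 (adjusted p = 0.206). The knockout libraries of Kif3b were above WT by more than the spread of either genotype, and those of Kif3a overlapped WT.

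Of 20 genes of the intraflagellar transport trains that kinesin-2 pulls, 5 fell and 1 rose at an adjusted p under 0.05 (background 16.6% and 16.4%), with a median log2 fold change of -0.15. The one gene at an adjusted p under 0.01 (background 4.89% lower and 4.98% higher) was Ttc30b, at 10.1 ± 0.810 CPM in WT and 5.78 ± 0.510 CPM in knockout libraries (SD, n = 3 each). It had a log2 fold change of -0.80 (SE 0.139, adjusted p = 0.00877 by edgeR's quasi-likelihood test). Kif7, the kinesin-4 that organises the tip of the cilium and holds GLI proteins in check in Hedgehog signalling, was at 30.9, 33.8 and 32.6 CPM in WT and at 29.1, 25.5 and 15.6 CPM in knockout libraries, and its log2 fold change of -0.47 had an adjusted p of 0.135. Of 6 Hedgehog genes, 2 fell (background 16.6%). Gli1, a target of the pathway with a WT mean of 6.52 CPM, fell by 2.97 (adjusted p = 0.00806 by the same test), and Gli2 fell by 0.93 (adjusted p = 0.0286). Gli3, Ptch1, Smo and Sufu did not pass.

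Kif26a showed the largest fold change of any kinesin. Kif26a and Kif26b are kinesin-11 proteins that bind microtubules without moving along them and are known from signalling. Kif26a was at 39.4, 35.1 and 36.1 CPM in WT and at 9.69, 9.31 and 0.857 CPM in knockout libraries, where 0.857 CPM is above the floor of 3 counts (0.143 CPM). Kif26a (ENSMUSG00000021294, chr12:112146208-112181747, plus strand) fell by 2.48 on the log2 scale (SE 0.670, adjusted p = 0.0320 by edgeR's quasi-likelihood test), and without knockout replicate 3 by 1.95 (adjusted p = 7.38e-07). The adjusted p of Kif26a was 0.0975 without WT replicate 3 by the same test. Knockout replicates 1 and 2 were close to each other and knockout replicate 3 was at 2.33% of the WT mean. Its relative Kif26b was at 80.4, 70.5 and 68.7 CPM in WT and at 79.8, 93.4 and 69.5 CPM in knockout libraries, a log2 fold change of 0.14 (adjusted p = 0.399), and its libraries overlapped.

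The remaining kinesins were low or near their WT level. Kif9, a kinesin-9 of motile cilia, was at 1.66, 1.66 and 1.33 CPM in WT and at 2.72, 3.51 and 2.52 CPM in knockout libraries. It rose by 0.91 on the log2 scale (SE 0.249, adjusted p = 0.0330 by edgeR's quasi-likelihood test), and Kif6 of the same family had -0.34 (adjusted p = 0.575). Kif24, a kinesin-13 of the centriole that limits cilium formation, was at 9.08, 9.26 and 10.5 CPM in WT and at 5.82, 6.13 and 1.48 CPM in knockout libraries, without overlap. Its log2 fold change was -1.10 with adjusted p = 0.110. Kif2a, a microtubule depolymerase of the same family as Kif2c, was at 74.1, 77.1 and 68.7 CPM in WT and at 79.6, 80.0 and 69.2 CPM in knockout libraries, a log2 fold change of 0.058 (adjusted p = 0.635). Within kinesin-13, Kif2c was thus at 22.9% of its WT mean and Kif2a at 104.1%.

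Kif21a and Kif21b, kinesin-4 proteins that restrain microtubule growth, had log2 fold changes of -0.17 and -0.29 (adjusted p = 0.431 and 0.155), and Kif27 had -0.39 (adjusted p = 0.602) at 0.191 to 0.570 CPM. The kinesin-14 genes Kifc2 and Kifc3 had 0.11 and 0.16 (adjusted p = 0.726 and 0.270). Kif19a and Kif2b did not pass the count filter and were not tested: Kif19a had 2 to 16 counts in a library, and Kif2b, known from testis, had 0 counts in 5 libraries and 1 in knockout replicate 3.

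Of 19 genes tested whose proteins work with the mitotic kinesins, 17 fell and 1 rose at an adjusted p under 0.05 (background 16.6% and 16.4%), with a median log2 fold change of -1.55. The lowest 3 were Ska1, a kinetochore protein (-2.20), Cenpe, the kinesin-7 of the kinetochore whose symbol is not of the Kif form (-1.81), and Nusap1, a spindle microtubule binder (-1.78). The highest 3 were the spindle pole proteins Numa1 (-0.60, adjusted p = 0.0338 by edgeR's quasi-likelihood test) and Ckap5 (-0.42, adjusted p = 0.319) and the plus-end protein Mapre1, which rose (0.48, adjusted p = 0.0120). Cenpe had a WT level of 97.9 ± 1.91 CPM (SD, n = 3) and levels of 40.1, 33.1 and 10.7 CPM in knockout replicates 1 to 3, the same order of libraries as in the 12 mitotic kinesins.

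General proliferation genes showed the same order too. Of 20 genes of the cell cycle and DNA replication, 19 fell and 0 rose at an adjusted p under 0.05 (quasi-likelihood test of edgeR, background 16.6% and 16.4%). Beside that 0, none of these genes was higher at an unadjusted p under 0.05 (background 22.5%). Their median log2 fold change was -1.52, and the medians against the WT mean were -1.15, -1.30 and -2.36 in knockout replicates 1 to 3. The values ran from -2.30 for the cyclin Ccnb2 through -2.08 for Mki67, -1.82 for Cenpa, -1.08 for Pcna and -0.89 for Ccne2 to -0.40 for Ccne1. The mitotic kinesins gave -1.29, -1.59 and -3.05 in the same libraries, so both groups fell furthest in knockout replicate 3. Whether fewer cells in cycle account for the mitotic kinesins was not tested.

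The partners of the transport motors moved in both directions. Of 16 genes for kinesin light chains, cargo adaptors and the small GTPases that recruit them, 6 rose and 2 fell at an adjusted p under 0.05 (background 16.4% and 16.6%), with a median log2 fold change of 0.13. At an adjusted p under 0.01 (background 4.98% higher and 4.89% lower) these were Arl8a, a lysosomal GTPase that recruits kinesins (0.77, adjusted p = 0.00755 by edgeR's quasi-likelihood test), and Rhot2, a mitochondrial GTPase that binds kinesin adaptors (-0.61, adjusted p = 0.00770). The light chain Klc1, the most abundant of its family in CPM, was at 176 ± 7.13 CPM in WT and 165 ± 20.0 CPM in knockout libraries (SD, n = 3 each), a log2 fold change of -0.094 (adjusted p = 0.498).

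Dynein with its activator dynactin is the motor that walks the other way, to the minus end. Of 19 of its genes tested, 9 rose and 1 fell at an adjusted p under 0.05 (background 16.4% and 16.6%), and the median log2 fold change was 0.29. The genes at an adjusted p under 0.01 (background 4.98% higher and 4.89% lower) were Dync1li1 (0.62), Dctn3 (0.60) and Actr10 (0.47), which rose, and Dynlt1a (-1.14), which fell. Its namesake Dynlt1b had a log2 fold change of -0.15 (adjusted p = 0.472 by edgeR's quasi-likelihood test) and libraries that overlapped. Sharing of reads between Dynlt1a and Dynlt1b was not examined. The heavy chain Dync1h1 was at 865 ± 21.0 CPM in WT and at 1154, 1169 and 671.8 CPM in knockout replicates 1 to 3, so knockout replicate 3 lay below WT and the others above it (log2 fold change 0.21, adjusted p = 0.464 by edgeR's quasi-likelihood test). Of 10 tubulin genes, 1 fell at an adjusted p under 0.01 (background 4.89%), Tubb5, from 1199 ± 37.2 to 819 ± 77.5 CPM (SD, n = 3 each, log2 fold change -0.55, adjusted p = 0.00837 by the same test).

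Marker sums of several cell types were furthest from WT in knockout replicate 3. All 8 fibroblast markers were measured in all libraries, and their summed level was 28122 to 30540 CPM in WT and 28546, 34936 and 18470 CPM in knockout replicates 1 to 3, most of it from collagens. Of the 8, Thy1 fell by 1.11 and Pdgfra fell by 1.22 on the log2 scale (adjusted p = 0.00251 and 0.0185 by edgeR's quasi-likelihood test), with Thy1 at 88.8, 83.8 and 78.4 CPM in knockout replicates 1 to 3. The others did not pass. Col1a2 and Col3a1 had negative log2 fold changes (-0.41 and -0.31). Vim, Fbn1, Pdgfrb and Col1a1 had positive ones (0.29, 0.24, 0.090 and 0.018), Vim with all 3 knockout libraries above WT. The 6 macrophage markers summed to 17.9 to 31.9 CPM in WT and to 23.8, 18.5 and 72.3 CPM in the knockout libraries. None of the 6 passed the test. Adgre1 was the largest part of the sum in knockout replicate 3, at 31.9 CPM against 1.76 to 4.27 CPM in WT. In that library Csf1r, Fcer1g, Ptprc and Tyrobp were also above their WT values, by fewer CPM. Cd68, at 8.57 CPM there, was inside its WT range of 6.70 to 10.49 CPM. The 6 epithelial markers summed to 54.6 to 58.6 CPM in WT and to 76.6, 53.0 and 21.5 CPM in knockout libraries, with Esrp1 at 0 to 6 counts in a library. Among them Krt19 rose, from 12.7, 13.2 and 15.4 CPM to 43.2, 29.7 and 18.4 CPM (adjusted p = 0.0274), while Krt8 was at 28.4 to 30.3 CPM in WT and at 18.1, 12.4 and 0.714 CPM in knockout libraries (adjusted p = 0.189), and Krt18 and Epcam were also lower in all 3 knockout libraries without passing the test. The 4 neuronal markers in the table summed to 45.4 to 46.9 CPM in WT and to 34.7, 32.3 and 17.0 CPM in knockout libraries. The part of such cells in the kinesin values was not tested, and the values without knockout replicate 3 stand beside the results above.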

How the data were processed

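RNA of 3 WT and 3 Rnf20 knockout samples was sequenced by the authors as paired-end, poly(A)-selected, stranded libraries and aligned to GRCm38/mm10 with HISAT2 2.1.0. The authors deposited raw counts per gene with gene lengths in bases (16982 genes), and FPKM values from Cufflinks 2.1.1 for 12633 genes, which served here only for the FPKM threshold of the call. The counting program and its use of strand are not given in the sources used here. The authors' columns of fold changes and adjusted p-values and 6 further count columns were not used.

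Genotype and replicate came from the sample labels, and positions and overlaps from GENCODE M21. From the counts, R 4.3.3 with edgeR 4.0.16 gave TMM factors, a filterByExpr filter (37 of 39 kinesins passed) and the quasi-likelihood test of knockout against WT over 13386 genes, adjusted by the Benjamini-Hochberg method. Standard errors were taken as the size of the log2 fold change over the square root of F. CPM per kilobase divides CPM by the deposited gene length. Alternatives were DESeq2 1.42.0, edgeR's exact test, RLE and library-size scaling, other filters, a replicate block, a term for Y-linked counts and each library left out. Total counts were 20545442 to 21746898 in a library, and 3 counts (0.142 to 0.143 CPM) were taken as the floor, which covers counting error only.

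Per-library values are given for Rnf20, the mitotic kinesins and other kinesins at an adjusted p under 0.05. They are also given for the 6 other kinesins highest per kilobase in WT. A few more (Kif24, Kif26b, Kif7, Kifc5b, Kifap3, Klc1, Gli2, Syt1, Cenpe, Dynlt1b and Dync1h1, some as means or fold changes only) were chosen after their values were seen. Of partner lists, members at an adjusted p under 0.01 are named, or the 3 lowest and 3 highest fold changes where these were none or over 6. Members, lists and tests were chosen with earlier results of these data known.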

Additional observations from a re-analysis of the deposited data

How the results depend on the processing

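The median log2 fold change of the mitotic kinesins was -1.84, and ran from -2.17 without knockout replicate 1 to -1.43 without knockout replicate 3. That of the transport or other kinesins was 0.13, and ran from 0.071 with library size only to 0.15 with a filter of CPM over 1. All shifts were under the SD of the list median over the knockout libraries (0.945 mitotic, 0.118 transport). For the mitotic kinesins this SD includes knockout replicate 3, whose median against WT was -3.05, so it is a loose limit. The number of genes called was 480, and 982 by DESeq2, 975 by the exact test and 1004 at an adjusted p under 0.05. It was 0 with the replicate block and 1 to 785 with 1 library left out. The Y-linked term sets knockout replicate 2 alone against WT, so counts under it are left out here. Mitotic kinesins called lower were 0, and 11 by DESeq2, the exact test or an adjusted p under 0.05, and 0 to 11 with 1 library left out. At an adjusted p under 0.01 alone they were 0, and 12 under the same 3 alternatives, and 0 to 12 with 1 library left out. Transport or other kinesins called higher were 1, and 0 with library size only or the replicate block, and 0 to 1 with 1 library left out. Those called lower were 0, and 1 by the exact test or at an adjusted p under 0.05, and 0 to 1 with 1 library left out. At an adjusted p under 0.01 alone 3 were higher, and 0 with the block and 0 to 6 with 1 library left out. At that threshold 0 were lower, and 1 by the exact test, 2 at 0.05 and 0 to 3 with 1 library left out. Directions turned for Kif2a (-0.0028, library size only), Kif3c (-0.023, library size only, and -0.044 to 0.10 with 1 library left out, negative without WT replicate 2 or knockout replicate 3), Kifc2 (-0.085 with the Y-linked term, and -0.067 to 0.24 with 1 library left out, negative without WT replicate 2) and Kifc3 (-0.022 with the Y-linked term), none of which passed a threshold. Same-numbered WT and knockout libraries deviated together with correlations of -0.066, 0.037 and 0.011, so the numbers do not pair the samples, and the replicate block was run only as an alternative. The cause of these shifts was not tested.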
